A study of Mus musculus with 13 samples.

Results

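The genes described here code for the pathway that runs from the NOD receptors through RIPK2 to NF-κB. They were chosen by name and by their known role in it, and comprise the receptors *Nod1* and *Nod2*, the kinase *Ripk2*, the ubiquitin ligases *Xiap*, *Birc2* and *Birc3*, the TAK1 complex genes *Tab2* and *Map3k7*, and the feedback genes *Nfkbia* and *Tnfaip3*. All 10 were found among the 53465 genes of the liver count table, and 9 had enough counts to be tested. The livers came from male mice of BALB/c, an inbred laboratory strain, and each mouse gave 1 RNA library, from 6 WT mice and 7 *Nod2*-/- mice, which lack *Nod2* in the whole body. Both groups had received the carcinogen DMBA on the skin as pups and were then kept on a high-fat diet, and the labels give 30 weeks as age and as time on the diet for every mouse, which cannot both be exact, as the diet began after birth. The labels give cancer as the disease state of every mouse, with no tumour burden of single mice. The groups were bred apart in 1 room and were not littermates, so genotype cannot be told apart from line. Whole liver was sequenced, so every value is a mix of hepatocytes and other cells. Gene counts summed to 14886273 to 20579984 in single WT libraries and to 13824780 to 19391431 in single *Nod2*-/- libraries.

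NOD1 and NOD2 are cytosolic receptors that bind fragments of bacterial peptidoglycan, NOD2 the muramyl dipeptide that most bacteria share. On binding they recruit the kinase RIPK2, on which XIAP and the cIAP ligases (*Birc2*, *Birc3*) build ubiquitin chains. These carry TAK1 (*Map3k7*) with its TAB partners and the IKK complex, which frees NF-κB from its inhibitors. NF-κB then induces its own brakes, among them IκBα (*Nfkbia*) and the ubiquitin-editing enzyme A20 (*Tnfaip3*). The liver meets these fragments in blood that drains from the gut.

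The libraries carried the markers of liver. The hepatocyte genes *Alb*, *Apoa1*, *Ttr*, *Cps1* and *Serpina1a* together took 7.21% to 10.6% of all counts (WT) and 7.98% to 15.5% (*Nod2*-/-), and *Alb* was the most abundant of them in sum. *Nod2* (ENSMUSG00000055994.15, in GRCm38 at chromosome 8, 88647315 to 88688474) was close to undetected in both groups, with raw counts of 4, 1, 3, 2, 0 and 3 (WT 1 to 6) and of 2, 2, 6, 1, 5, 1 and 4 (*Nod2*-/- 1 to 7). Summed over mice this is 0.128 CPM in WT libraries (exact Poisson interval 0.0680 to 0.218, counting error only) and 0.184 in *Nod2*-/- libraries (0.114 to 0.281). The intervals overlap, and the normalized counts did not differ either (two-sided exact permutation test, p = 0.385). Gene counts do not resolve which exons were deleted, and at this depth *Nod2* could not check the genotype labels.

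The question put to the counts was whether loss of the receptor came with other levels of the machinery downstream of it. No member passed 5% FDR: 0 of the 9 tested members had an edgeR p (quasi-likelihood test) under 0.05 once adjusted over all 13545 genes tested, where 1.16% of all genes had one (88 higher and 69 lower). At an unadjusted p under 0.05, 3 of 9 members were higher in *Nod2*-/- mice (*Nod1*, *Birc3* and *Tnfaip3*), against 12.9% of all tested genes, and 0 were lower, against 10.2%. DESeq2, the study's tool, placed 1 member past 5% FDR, *Tnfaip3*, where it placed 8.41% of the genes it tested, and limma's voomWithQualityWeights placed 0, against 6.22% of all tested genes. In no member did the groups separate fully, while 0.753% of all tested genes were higher and 0.687% lower in *Nod2*-/- mice without overlap. The median log2 fold change of the 9 members was 0.13 and that of all tested genes 0.02, and 7 of the 9 were above 0.

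The members spanned a wide range of levels, compared here as CPM per kilobase of exon length (mean ± SD in WT mice, n = 6). *Nfkbia* stood highest at 24.0 ± 4.98, followed by *Xiap* at 14.5 ± 1.52 and *Tab2* at 8.64 ± 0.882, whose spread overlapped that of *Map3k7* at 7.61 ± 0.706. *Birc2* came next at 5.37 ± 0.546, then *Ripk2* at 2.65 ± 0.339. *Birc3* at 1.81 ± 0.411 and *Nod1* at 1.58 ± 0.353 overlapped each other, and *Tnfaip3* at 0.667 ± 0.151 lay above only *Nod2* at 0.0252 ± 0.0169. The genes for the adaptor kinase and both receptors were thus in the lower part of this order, with *Birc3* and the feedback gene *Tnfaip3*. The inhibitor gene *Nfkbia* was at its upper end.

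*Nod1* (ENSMUSG00000038058.14, chromosome 6, 54923949 to 54972612), the receptor for meso-diaminopimelic acid peptides, was the only NOD receptor that could be tested. Its normalized counts were 85.5, 133 and 169 in WT mice and 127, 177 and 204 in *Nod2*-/- mice (lowest, median and highest here and wherever 3 values are given, corrected for effective library size). The groups overlapped, with 4 of the 7 *Nod2*-/- mice above every WT mouse and 6 of 7 above the WT median. The difference (log2 fold change 0.39 ± 0.16 with ± for the standard error here and below, 95% interval 0.06 to 0.73) had an unadjusted p of 0.0253 but did not pass after adjustment (edgeR adjusted p 0.160, exact permutation p = 0.0291). *Ripk2* (chromosome 4, 16122733 to 16163647), the kinase that both receptors recruit, had normalized counts of 97.6, 129 and 137 in WT mice and 117, 133 and 172 in *Nod2*-/- mice. Of the *Nod2*-/- mice, 3 lay above every WT mouse, with replicate 7 highest, and 3 below the WT median, so the difference was small beside the spread between mice (log2 fold change 0.16 ± 0.12, 95% interval -0.10 to 0.41, edgeR adjusted p 0.435). In log2 fold change, *Ripk2* was at 0.10 without WT replicate 2 and 0.10 without *Nod2*-/- replicate 7.

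None of the ligase genes of the RIPK2 complex passed 5% FDR. *Xiap* (chromosome X, 42059679 to 42109656), whose product ubiquitinates RIPK2, had normalized counts of 1942 to 2608 (WT) and 1700.0 to 2715 (*Nod2*-/-) (log2 fold change -0.13 ± 0.11, edgeR adjusted p 0.524). *Birc2*, which codes for cIAP1, had 349 to 442 (WT) and 391 to 499.8 (*Nod2*-/-) (log2 fold change 0.13 ± 0.09, edgeR adjusted p 0.371). In both of these genes the groups overlapped, and the log2 fold change of *Xiap* was -0.21 without *Nod2*-/- replicate 2 and -0.08 without replicate 6. *Birc3* (chromosome 9, 7848699 to 7873186), which codes for cIAP2 and is itself an NF-κB target, had normalized counts of 109, 149 and 197 in WT mice and 157, 224 and 326 in *Nod2*-/- mice. All 7 *Nod2*-/- mice lay above the WT median and 4 above every WT mouse, with replicate 7 highest, yet the difference missed 5% FDR (log2 fold change 0.56 ± 0.18, 95% interval 0.17 to 0.95, edgeR adjusted p 0.101 and 0.0505 by DESeq2, exact permutation p = 0.0198). *Birc2* and *Birc3* are neighbours on chromosome 9, 11634 bases apart, with related coding sequences. How reads that fit both were counted is not given in the sources used here.

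*Map3k7* and *Tab2*, which code for the kinase TAK1 and the adaptor that ties it to ubiquitin chains, showed no difference past the spread between mice. *Map3k7* (chromosome 4, 31964097 to 32023467) had normalized counts of 716, 830.3 and 898 in WT mice and 635, 666 and 853 in *Nod2*-/- mice. *Nod2*-/- replicates 4 to 7 lay below every WT mouse and replicates 1 to 3 within the WT range (log2 fold change -0.16 ± 0.09, 95% interval -0.36 to 0.04, edgeR adjusted p 0.308). *Tab2* had 793 to 1046 (WT) and 793 to 1388 (*Nod2*-/-) (log2 fold change 0.12 ± 0.13, edgeR adjusted p 0.581), and its highest value was that of *Nod2*-/- replicate 5, without which the log2 fold change was 0.01 (adjusted p 0.956).

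Neither feedback gene passed 5% FDR by edgeR. *Nfkbia* (chromosome 12, 55489410 to 55492647) had normalized counts of 477, 673 and 817 in WT mice and 536, 608 and 881 in *Nod2*-/- mice. The groups covered one range, the fold change lay close to 0 (log2 fold change 0.02 ± 0.15, 95% interval -0.29 to 0.33, edgeR adjusted p 0.951), and its sign depended on the mice and the test used. *Tnfaip3* (chromosome 10, 19000910 to 19015657) had normalized counts of 78.9, 50.4, 81.3, 105, 74.0 and 89.2 in WT replicates 1 to 6 and 75.1, 113, 139.7, 176, 156, 99.0 and 449 in *Nod2*-/- replicates 1 to 7. Of the *Nod2*-/- mice, 5 lay above every WT mouse, replicates 1 and 6 lay within the WT range, and replicate 7 was far above all others. The log2 fold change was 1.11 ± 0.36 (95% interval 0.35 to 1.87), which missed 5% FDR by edgeR (edgeR adjusted p 0.0978) and passed it by DESeq2 (adjusted p = 0.0281), with an exact permutation p of 0.0239. Over the other tests and mice left out, the adjusted p ranged from 0.0281 to 0.214, and without *Nod2*-/- replicate 7 the log2 fold change was 0.66 (adjusted p = 0.147 by edgeR). *Tnfaip3* is in the study's tables of changed genes, so its direction here is not independent of them.

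**Figure D1:**
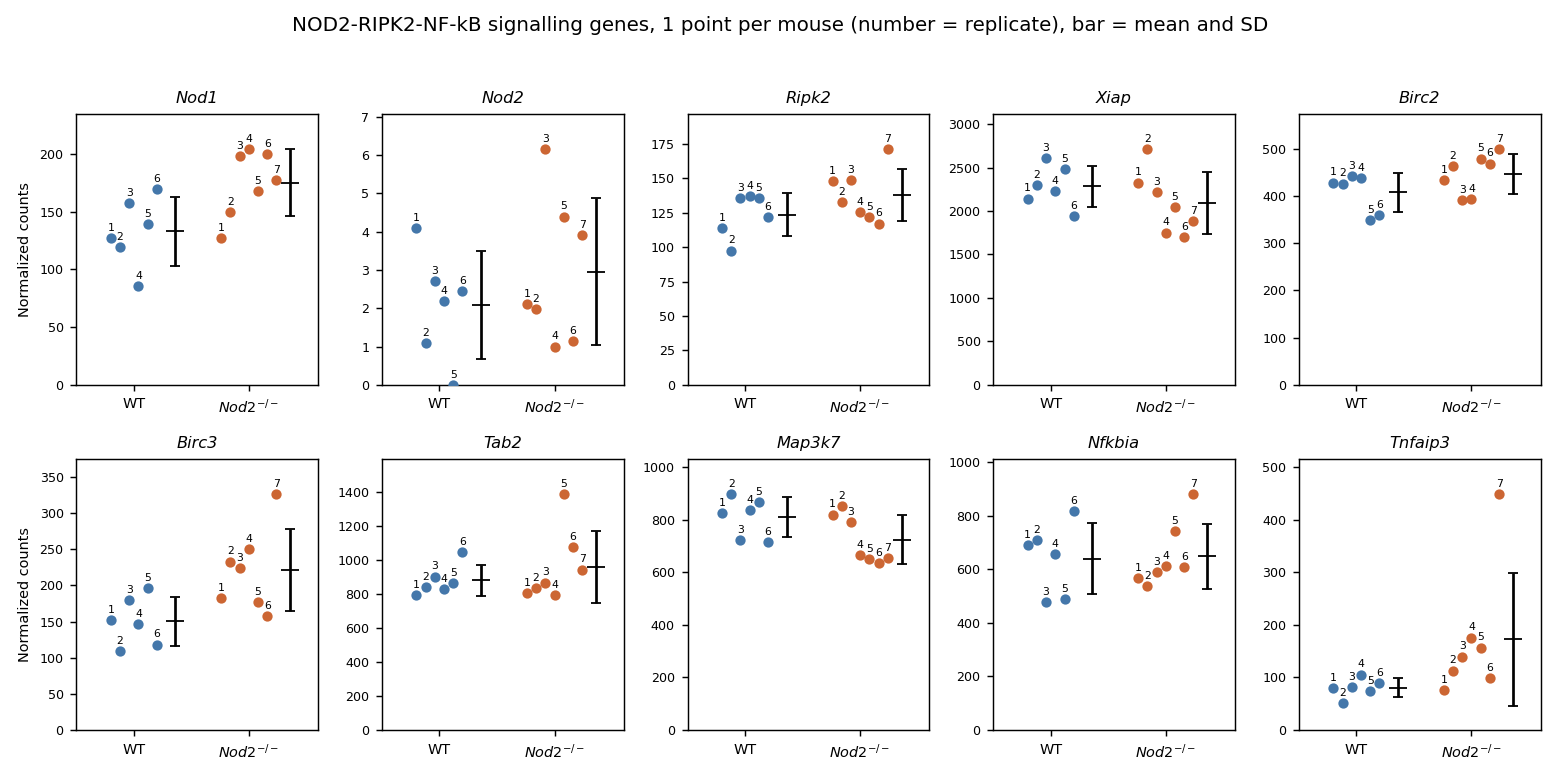
Normalized counts (vertical axes, linear from 0) of the 10 signalling genes in each WT and *Nod2*-/- mouse, 1 point per mouse numbered by replicate, with a bar for the group mean and SD. Groups overlap in every panel, *Nod2* stays at or below 6.16, and *Nod2*-/- replicate 7 is highest in *Ripk2*, *Birc2*, *Birc3*, *Nfkbia* and *Tnfaip3*.

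*Nod2*-/- replicate 7 stood out across the pathway. It had the highest normalized count of all 13 mice in 5 of the 9 tested members and in 29 of the 82 tested genes of the members and the wider lists described next (35.4%), against 11.7% of all tested genes. *Nod2*-/- replicates 1 and 3 were highest in 0 of these 82 genes, but also in only 2.53% and 5.14% of all tested genes. After each group's mean was subtracted from log2 CPM, the 36 pairs of tested members had a median Pearson's r of 0.01 over the 13 mice, and 18 of the pairs had r above 0. The highest value was that of *Ripk2* with *Birc3* (r 0.72, Spearman's rho 0.68), and it was 0.50 without the 2 mice farthest from the median of *Ripk2*. The lowest were those of *Xiap* with *Nfkbia* (r -0.62), *Tab2* with *Map3k7* (r -0.62) and *Nod1* with *Map3k7* (r -0.60), and *Xiap* with *Map3k7* had 0.71. These correlations are given as a description of 13 mice, with no test.

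By the same measure, the tested genes most like 3 of the members were named, again as a description over 13 mice, with each r given again without the 2 mice farthest from the member's median. They are the 3 highest in a search over all 13545 tested genes, so high values follow from the search itself. Leaving mice out does not undo this choice, and whether any value exceeds what such a search gives by chance was not tested. For *Ripk2* they were *Eps8* (Pearson's r 0.87, Spearman's rho 0.81, r 0.86 without these mice), *Tlr8* (Pearson's r 0.86, Spearman's rho 0.89, r 0.74 without these mice) and *Tbc1d22b* (Pearson's r 0.86, Spearman's rho 0.97, r 0.79 without these mice), the mice left out being *Nod2*-/- replicate 7 and WT replicate 2. For *Tnfaip3* they were *Slfn2* (Pearson's r 0.97, Spearman's rho 0.93, r 0.94 without these mice), *Fes* (Pearson's r 0.96, Spearman's rho 0.90, r 0.85 without these mice) and *Tifab* (Pearson's r 0.96, Spearman's rho 0.93, r 0.82 without these mice), without *Nod2*-/- replicate 7 and *Nod2*-/- replicate 1. For *Nfkbia* they were *Cerkl* (Pearson's r 0.89, Spearman's rho 0.92, r 0.86 without these mice), *2510046G10Rik* (Pearson's r 0.89, Spearman's rho 0.91, r 0.85 without these mice) and *Cers5* (Pearson's r 0.89, Spearman's rho 0.94, r 0.81 without these mice), without *Nod2*-/- replicate 7 and WT replicate 6.

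The wider pathway, 94 further genes in 10 lists, was examined by role. With the members, 82 of 104 genes were tested, of which 2 were higher and 0 lower in *Nod2*-/- mice at 5% FDR by edgeR, against 1.16% of all tested genes in either direction. Before adjustment, 20 were higher and 8 lower with edgeR p under 0.05, against 12.9% and 10.2% of all tested genes, so the lower genes were no more than their share. DESeq2 placed 13 higher and 4 lower past 5% FDR, against 8.41% of its genes in either direction, and voomWithQualityWeights 9 higher and 0 lower, against 6.22%. The median log2 fold change of the 82 genes was 0.11. *Relb*, *Nfkbiz*, *Tnfaip3*, *Lacc1*, *Card9*, *Il1b*, *Cxcl1*, *Icam1*, *Lcn2* and *Ier3* are in the study's tables of changed genes, which were made from these mice, so counts that include them are not independent evidence of a direction.

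The pair past 5% FDR by edgeR were *Lacc1*, whose enzyme is a partner of NOD2 and RIPK2 in macrophages, and *Icam1*, an adhesion molecule and NF-κB target. *Lacc1* (ENSMUSG00000044350.14, chromosome 14, 77024200 to 77036904) had normalized counts of 30.7, 41.8 and 96.6 in WT mice and 75.0, 121 and 252 in *Nod2*-/- mice. It rose in *Nod2*-/- mice (log2 fold change 1.47 ± 0.31, 95% interval 0.81 to 2.14, edgeR adjusted p 0.0422, exact permutation p = 0.00408). Here 5 of the 7 mice were above every WT mouse, and WT replicate 6 was the high WT mouse. *Icam1* (ENSMUSG00000037405.8, chromosome 9, 21015985 to 21028817) had normalized counts of 78.9, 162 and 248 in WT mice and 217, 314 and 590.0 in *Nod2*-/- mice. It rose as well (log2 fold change 1.21 ± 0.28, 95% interval 0.62 to 1.80, edgeR adjusted p 0.0490, exact permutation p = 0.00291), with 6 of the 7 *Nod2*-/- mice above every WT mouse. Both calls depended on which mice were included. Without WT replicate 1, 2, 4 or 5 the adjusted p was 0.0970, 0.109, 0.0929 and 0.0923 for *Lacc1* and 0.115, 0.112, 0.104 and 0.102 for *Icam1*. Without *Nod2*-/- replicate 4, 6 or 7 it was 0.0832, 0.0597 and 0.0706 for *Lacc1* and 0.0988, 0.0628 and 0.0928 for *Icam1*, which was also lost without WT replicate 6 (0.0563) or *Nod2*-/- replicate 5 (0.0572). On all mice the adjusted p of *Lacc1* was 0.000463 by DESeq2 and 0.0200 by voomWithQualityWeights, and that of *Icam1* was 0.00142 by DESeq2 and 0.0236 by voomWithQualityWeights.

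Position was given beside *Lacc1*, after its values were seen. Chromosome 14, where it lies, had 23 of 469 tested genes past 5% FDR (4.90%, the highest share of any chromosome), against 1.02% of the tested genes elsewhere. Chromosome 18 came next with 12 of 323 (3.72%), and chromosome 8, which carries *Nod2*, had 8 of 745 (1.07%). Whether a stretch of chromosome 14 or 18 differs between the separately bred lines was not tested. *Lacc1* shares 133 exonic bases with *Ccdc122* on the opposite strand and *Icam1* shares 511 with *Gm47079*. Whether strand was used in counting is not given in the sources used here, so reads of these overlaps cannot be told apart. *Cyld*, the deubiquitinase gene that lies 8553 bases from *Nod2*, had normalized counts of 402 to 485 (WT) and 376 to 452 (*Nod2*-/-) (log2 fold change -0.12 ± 0.07, edgeR adjusted p 0.346).

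None of the 5 NF-κB subunit genes and 4 further IκB family genes tested passed 5% FDR by edgeR, where 1.16% of all tested genes did. All 5 subunit genes had a log2 fold change above 0 (median 0.28), as did 52.3% of all tested genes, and *Nfkb1* (edgeR adjusted p 0.458) and *Rel* (edgeR adjusted p 0.341) were far from passing. Of these 5, 2 were higher at an unadjusted p under 0.05 (12.9% of all tested genes), 2 past 5% FDR by DESeq2 (8.41%) and 1 by voomWithQualityWeights (6.22%). *Relb*, a subunit of the alternative NF-κB pathway, had normalized counts of 17.5, 23.9 and 43.4 in WT mice and 27.3, 50.6 and 123 in *Nod2*-/- mice (log2 fold change 1.16 ± 0.35, edgeR adjusted p 0.0878, 0.0224 by DESeq2 and 0.0700 by voomWithQualityWeights). *Nfkb2*, which codes for its p100 partner, had 99.4, 122 and 185 in WT mice and 153, 173 and 275 in *Nod2*-/- mice (log2 fold change 0.60 ± 0.17, edgeR adjusted p 0.0782, 0.0251 by DESeq2 and 0.0310 by voomWithQualityWeights). All 7 *Nod2*-/- mice were above the WT median in both, and WT replicate 3 was the highest WT mouse. *Rela*, the main transactivating subunit, had 694 to 1006 (WT) and 796 to 1161 (*Nod2*-/-) (log2 fold change 0.22 ± 0.11, edgeR adjusted p 0.253), and all 7 *Nod2*-/- mice were above its WT median too. Without WT replicate 3 both *Relb* and *Nfkb2* passed 5% FDR by edgeR (adjusted p = 0.0438 and 0.0235), while without WT replicate 2 the values were 0.197 and 0.180. Without *Nod2*-/- replicate 7 they were 0.169 and 0.147, with log2 fold changes of 0.91 and 0.50.

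All 4 tested IκB family genes beside *Nfkbia* had a fold change above 0 (median 0.60), against 52.3% of all tested genes. Of these 4, 0 passed 5% FDR by edgeR (1.16% of all tested genes), 3 were higher at an unadjusted p under 0.05 (12.9% of all tested genes), 2 past 5% FDR by DESeq2 (8.41%) and 2 by voomWithQualityWeights (6.22%). *Nfkbiz*, the nuclear inhibitor-like cofactor IκBζ, had normalized counts of 79.5, 93.2 and 146 in WT mice and 147, 212 and 567 in *Nod2*-/- mice. Of all tested genes, 0.753% were higher and 0.687% lower in *Nod2*-/- mice without overlap. Near this share, *Nfkbiz* was the 1 gene of the 82 tested whose groups did not overlap. Every *Nod2*-/- mouse was above every WT mouse in it, by as little as 147 against 146. Its log2 fold change of 1.29 ± 0.30 missed 5% FDR by edgeR (edgeR adjusted p 0.0526) and passed by the other tools (0.00203 by DESeq2 and 0.0367 by voomWithQualityWeights), and was 0.98 without *Nod2*-/- replicate 7. It passed without WT replicate 3 (0.0388) and without *Nod2*-/- replicate 1 (0.0494) or 2 (0.0461), and over the other single omissions the adjusted p went up to 0.136 (without WT replicate 2) and 0.114 (without WT replicate 5). *Nfkbie*, which codes for the inhibitor IκBε, had 47.5, 53.0 and 77.7 in WT mice and 68.7, 91.4 and 135 in *Nod2*-/- mice (log2 fold change 0.76 ± 0.18, edgeR adjusted p 0.0565, 0.00560 by DESeq2 and 0.0235 by voomWithQualityWeights). Here 5 of the 7 *Nod2*-/- mice lay above every WT mouse, WT replicate 3 being the high one, and the edgeR adjusted p was 0.0189 without it, 0.0416 without *Nod2*-/- replicate 1 and up to 0.138 without WT replicate 2. *Nfkbib* (log2 fold change 0.30 ± 0.17) and *Bcl3* (log2 fold change 0.44 ± 0.18) had adjusted p-values of 0.284 and 0.160 by edgeR, and *Nfkbib* a log2 fold change of 0.19 without *Nod2*-/- replicate 7.

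**Figure D2:**
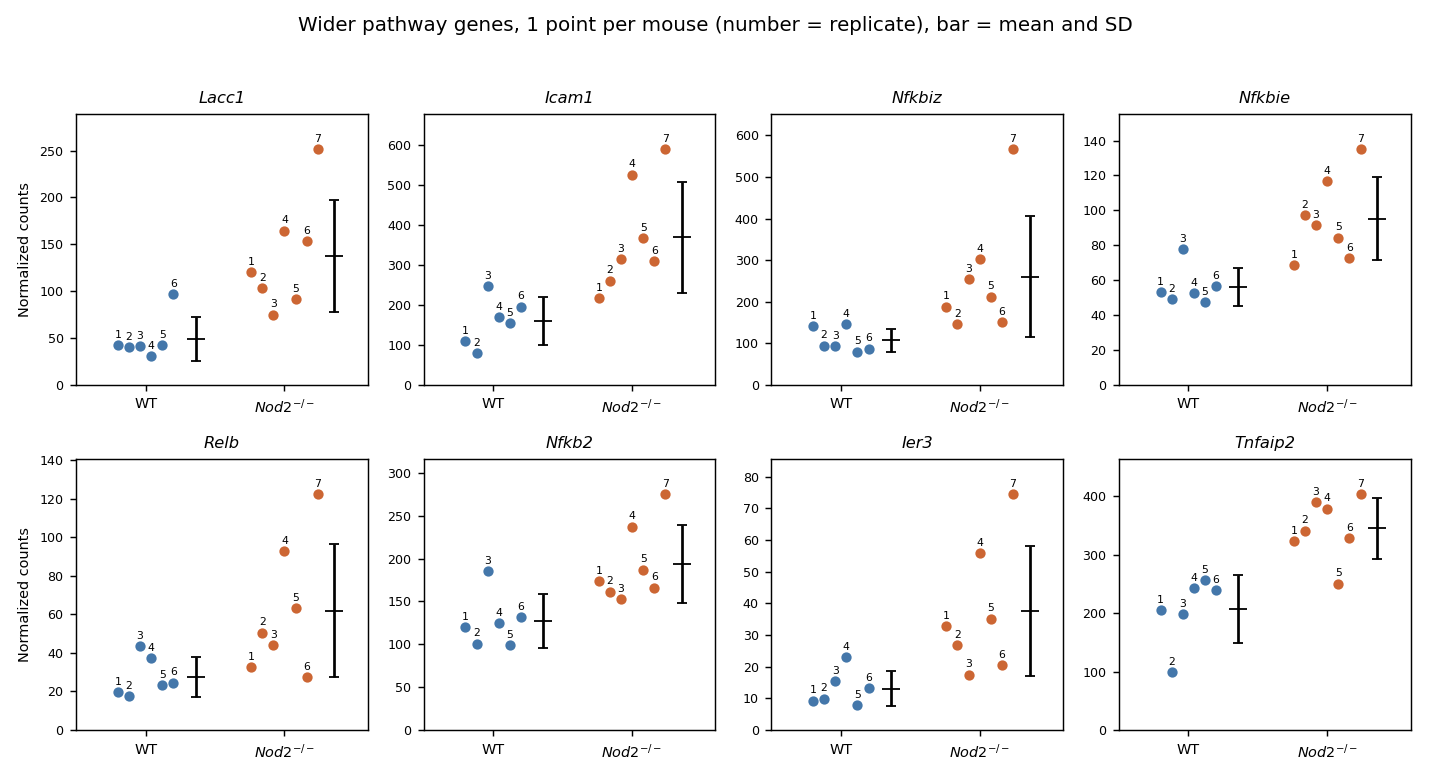
Normalized counts (vertical axes, linear from 0) of 8 genes of the wider lists in each WT and *Nod2*-/- mouse, 1 point per mouse numbered by replicate, with a bar for the group mean and SD. *Nfkbiz* is the panel without overlap, and *Nod2*-/- replicate 7 is highest in every panel.

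Upstream of the receptors, among the transporters and enzymes that bring in or cleave peptidoglycan, 6 of 11 genes were tested, and 0 were higher and 0 lower at 5% FDR by edgeR, against 1.16% of all tested genes (median log2 fold change 0.15). Before adjustment, p was under 0.05 for 1 higher and 1 lower (12.9% and 10.2% of all tested genes), and DESeq2 had past 5% FDR 1 higher and 0 lower (8.41% of its genes in either direction). *Pglyrp2*, the amidase that liver secretes and that cuts peptidoglycan, had normalized counts of 1094, 1331 and 1979 in WT mice and 1658, 1834 and 3189 in *Nod2*-/- mice. All 7 *Nod2*-/- mice were above the WT median and 3 above every WT mouse (log2 fold change 0.66 ± 0.20, edgeR adjusted p 0.0841, 0.0279 by DESeq2 and 0.0476 by voomWithQualityWeights). *Slc46a3* (log2 fold change -0.34 ± 0.15, edgeR adjusted p 0.190) and *Slc15a4* (log2 fold change -0.32 ± 0.21, edgeR adjusted p 0.362), lysosomal transporters, had values below the WT median in 7 and 5 of the 7 *Nod2*-/- mice. Without WT replicate 1 the log2 fold change of *Slc15a4* was -0.17. Of the direct partners of the NOD proteins, 7 of 8 genes were tested, and 1 were higher and 0 lower at 5% FDR by edgeR, against 1.16% of all tested genes (median log2 fold change 0.02). DESeq2 placed past 5% FDR 1 higher and 0 lower (8.41% of its genes in either direction), and by unadjusted edgeR p under 0.05 there were 1 higher and 1 lower (12.9% and 10.2% of all tested genes). *Nlrp12* (log2 fold change -0.67 ± 0.30, edgeR adjusted p 0.204), *Erbin* (log2 fold change -0.14 ± 0.09, edgeR adjusted p 0.378) and *Mavs* (log2 fold change -0.09 ± 0.11, edgeR adjusted p 0.619) did not pass. The log2 fold change of *Nlrp12* was -0.40 without WT replicate 6, and that of *Mavs* was -0.14, -0.15 and -0.05 without *Nod2*-/- replicate 1, 6 or 7.

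In the wider list of ubiquitin ligases and conjugating enzymes, 11 of 11 genes were tested, and 0 were higher and 0 lower at 5% FDR by edgeR, against 1.16% of all tested genes (median log2 fold change -0.04). With unadjusted p under 0.05 it gave 1 higher and 1 lower (12.9% and 10.2% of all tested genes), and DESeq2 placed past 5% FDR 0 higher and 1 lower (8.41% of its genes in either direction). *Itch*, a ligase that acts with A20, had normalized counts of 1453, 1755 and 2017 in WT mice and 1074, 1408 and 1591 in *Nod2*-/- mice, and all 7 *Nod2*-/- mice were below the WT median (log2 fold change -0.37 ± 0.10, edgeR adjusted p 0.0762, 0.0141 by DESeq2). *Traf2* (log2 fold change 0.21 ± 0.10, edgeR adjusted p 0.210) and *Ube2v1* (log2 fold change -0.41 ± 0.24, edgeR adjusted p 0.318) had fold changes of opposite sign. *Ube2v1*, with 2721 exonic bases, shares 1881, summed over both, with *Gm20431* on the same strand and *Gm11476* on the opposite one. How reads of these stretches were counted is not given in the sources used here. Among deubiquitinases and ubiquitin binders, 8 of 8 genes were tested, and 0 were higher and 0 lower at 5% FDR by edgeR, against 1.16% of all tested genes (median log2 fold change 0.07). Before adjustment, p was under 0.05 for 1 higher and 2 lower (12.9% and 10.2% of all tested genes), and DESeq2 had past 5% FDR 1 higher and 1 lower (8.41% of its genes in either direction). *Tnip2*, an A20-binding protein gene, had 61.4, 79.4 and 106 in WT mice and 85.7, 116 and 156 in *Nod2*-/- mice (log2 fold change 0.54 ± 0.17, edgeR adjusted p 0.0900, 0.0383 by DESeq2), and all 7 *Nod2*-/- mice were above the WT median. *Tax1bp1* (log2 fold change -0.19 ± 0.08, edgeR adjusted p 0.148, 0.0279 by DESeq2) and *Usp8* (log2 fold change -0.31 ± 0.11, edgeR adjusted p 0.122) were below the WT median in all 7.

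Of the further genes of the TAK1 and IKK complexes, 5 of 5 genes were tested, and 0 were higher and 0 lower at 5% FDR by edgeR, against 1.16% of all tested genes (median log2 fold change -0.10). DESeq2 placed past 5% FDR 0 higher and 0 lower (8.41% of its genes in either direction), and by unadjusted edgeR p under 0.05 there were 0 higher and 0 lower (12.9% and 10.2% of all tested genes). *Chuk*, the IKKα gene, had normalized counts of 2212 to 2793 (WT) and 1688 to 2529 (*Nod2*-/-) and lay below the WT median in all 7 *Nod2*-/- mice (log2 fold change -0.23 ± 0.11, edgeR adjusted p 0.219), while *Ikbkb* (log2 fold change 0.06 ± 0.07, edgeR adjusted p 0.625) and *Tab1* (log2 fold change 0.15 ± 0.16, edgeR adjusted p 0.604) did not stand apart. In log2 fold change, *Ikbkb* was at 0.02 without WT replicate 6, and *Tab1* ran from 0.07 (without WT replicate 4) to 0.28 (without WT replicate 5), with 0.08 without WT replicate 2 and 0.09 without *Nod2*-/- replicate 3. Of the kinases on the other branch below TAK1, JNK and p38 with the kinases that activate them, 8 of 8 genes were tested, and 0 were higher and 0 lower at 5% FDR by edgeR, against 1.16% of all tested genes (median log2 fold change -0.13). DESeq2 placed past 5% FDR 0 higher and 2 lower (8.41% of its genes in either direction), and by unadjusted edgeR p under 0.05 there were 1 higher and 2 lower (12.9% and 10.2% of all tested genes). *Mapk14*, which codes for p38α, had normalized counts of 1776, 2082 and 2127 in WT mice and 1406, 1595 and 1938 in *Nod2*-/- mice and *Map2k3*, a kinase that activates p38, had 1423, 1721 and 1964 in WT mice and 1169, 1367 and 1719.7 in *Nod2*-/- mice. Every *Nod2*-/- mouse lay below the WT median in both genes (log2 fold change -0.30 ± 0.09 and edgeR adjusted p 0.0805 for *Mapk14*, log2 fold change -0.33 ± 0.11 and edgeR adjusted p 0.0981 for *Map2k3*), and DESeq2 gave 0.0119 and 0.0367. Without WT replicate 3 the adjusted p of *Map2k3* was 0.0381 by edgeR, and over single omissions it went up to 0.219 without WT replicate 2. The much less abundant *Mapk11* had 7.18 to 23.0 (WT) and 11.6 to 28.4 (*Nod2*-/-) (log2 fold change 0.71 ± 0.29, edgeR adjusted p 0.167).

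Of the NF-κB target genes, 14 of 25 genes were tested, and 1 were higher and 0 lower at 5% FDR by edgeR, against 1.16% of all tested genes (median log2 fold change 1.0). Before adjustment, p was under 0.05 for 7 higher and 1 lower (12.9% and 10.2% of all tested genes), and DESeq2 had past 5% FDR 5 higher and 0 lower (8.41% of its genes in either direction). *Tnf*, *Il6*, *Il12b*, *Cxcl2* and *Nos2* were among those under the expression filter. Of the tested targets, 12 had a fold change above 0, against 52.3% of all tested genes. The 1 lower at an unadjusted p under 0.05 was *Sod2*, with normalized counts of 2674 to 4374 (WT) and 2093 to 3663 (*Nod2*-/-) and a log2 fold change of -0.35. *Tnfaip2* had normalized counts of 98.7, 222 and 256 in WT mice and 251, 341 and 404 in *Nod2*-/- mice, with 6 of the 7 *Nod2*-/- mice above every WT mouse (log2 fold change 0.74 ± 0.18, edgeR adjusted p 0.0601, 0.00664 by DESeq2 and 0.0367 by voomWithQualityWeights, exact permutation p = 0.00175). *Ier3*, an immediate early gene, had 7.73, 11.5 and 23.0 in WT mice and 17.5, 32.8 and 74.5 in *Nod2*-/- mice (log2 fold change 1.52 ± 0.37, edgeR adjusted p 0.0579, 0.00447 by DESeq2 and 0.0385 by voomWithQualityWeights). *Lcn2*, the siderophore-binding lipocalin that hepatocytes and neutrophils make, had 144, 667 and 2112 in WT mice and 982, 2601 and 53827 in *Nod2*-/- mice (log2 fold change 3.86 ± 1.08, edgeR adjusted p 0.0734, 0.00464 by DESeq2 and 0.0599 by voomWithQualityWeights, exact permutation p = 0.182). The value of *Nod2*-/- replicate 7 carried much of this, and without it the log2 fold change of *Lcn2* was 2.43. Without WT replicate 3 the edgeR adjusted p was 0.0426 for *Tnfaip2*, 0.0364 for *Ier3* and 0.0385 for *Lcn2*, and over single omissions it went up to 0.124 without WT replicate 1, 0.144 without WT replicate 2 and 0.168 without WT replicate 2. It was also under 0.05 for *Tnfaip2* without *Nod2*-/- replicate 5 (0.0484) and for *Ier3* without *Nod2*-/- replicate 3 (0.0400). Among other NLR genes, 5 of 8 genes were tested, and 0 were higher and 0 lower at 5% FDR by edgeR, against 1.16% of all tested genes (median log2 fold change 0.22). With unadjusted p under 0.05 it gave 0 higher and 0 lower (12.9% and 10.2% of all tested genes), and DESeq2 placed past 5% FDR 0 higher and 0 lower (8.41% of its genes in either direction). *Nlrp6* (log2 fold change -0.19 ± 0.18, edgeR adjusted p 0.536), *Nlrc5* (log2 fold change 0.22 ± 0.19), *Nlrp3* (log2 fold change 0.86 ± 0.51, edgeR adjusted p 0.324) and *Ciita* (log2 fold change 0.59 ± 0.41, edgeR adjusted p 0.392) did not pass. For *Ciita*, WT replicate 3, at 30.7, was the highest of all 13 mice, and without it the log2 fold change was 1.13 (edgeR adjusted p 0.0527). Single mice weighed on the other genes of this list too: the log2 fold change of *Nlrp3* was 0.56 without *Nod2*-/- replicate 7, that of *Nlrc5* 0.37 without WT replicate 3 and 0.11 without WT replicate 5, and that of *Nlrp6* -0.07 without WT replicate 1 and -0.10 without WT replicate 4.

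**Figure D3:**
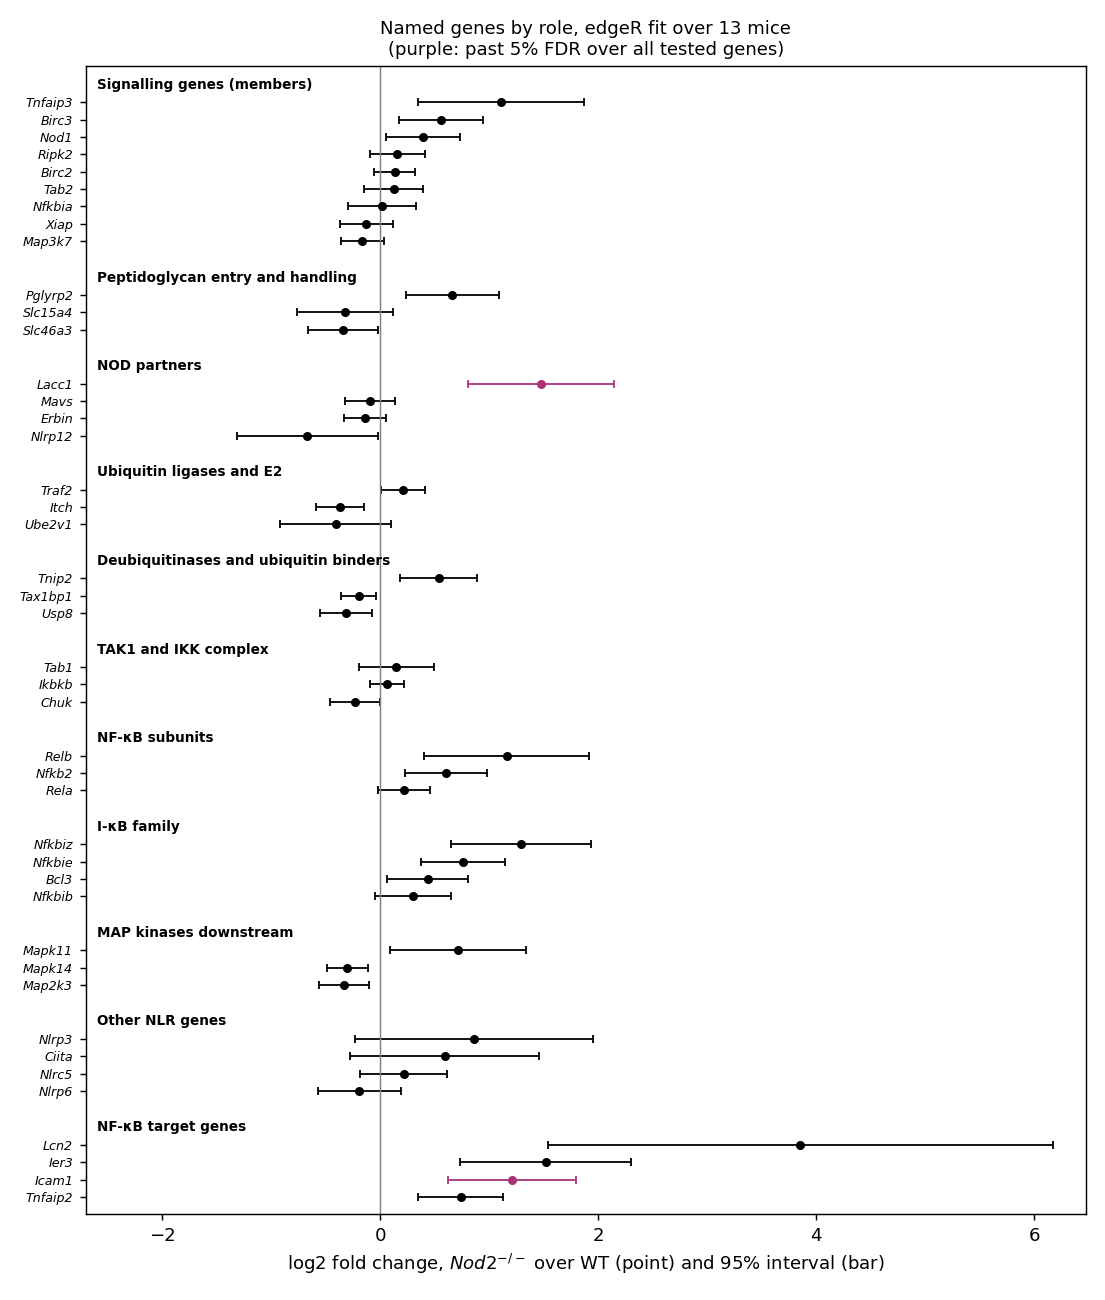
Log2 fold change in *Nod2*-/- over WT mice (horizontal axis) with its 95% interval for each named gene that was tested, grouped by role, from the edgeR fit over 13 mice. *Lacc1* and *Icam1* are the genes past 5% FDR, and the points of the NF-κB subunits and IκB family lie to the right of 0 while those of *Itch*, *Mapk14* and *Map2k3* lie to its left.

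Markers of other cells stood high together with these genes in some mice, and their part in the differences was not tested. In bulk liver, fewer cells of a type and less RNA per cell cannot be told apart. The summed normalized count of 9 neutrophil markers, of which 4 were tested and all 4 of these had a fold change above 0, was 69.1, 103 and 154 in WT mice and 96.2, 346 and 16047 in *Nod2*-/- mice. The highest value was that of *Nod2*-/- replicate 7, whose next mouse had 659, and *S100a9* made up 45.8% of the sum. The *Nod2*-/- mean was 23.9 times the WT mean with this mouse and 3.08 times without it, and *Ngp*, *Ltf*, *Camp*, *Retnlg* and *Ly6g* were at 0 in at least 1 mouse. In 6 of the 7 *Nod2*-/- mice the sum was above every WT mouse. All 4 tested markers had an unadjusted edgeR p under 0.05 (12.9% of all tested genes), and 0 passed 5% FDR by edgeR. Exact permutation p-values were 0.464 for *S100a8*, 0.434 for *S100a9*, 0.181 for *Csf3r* and 0.652 for *Cxcr2*. The study names *S100a8*, *S100a9*, *Csf3r*, *Ngp* and *Camp* among the genes raised in these same mice, so their direction here is not independent of it. DESeq2 gave adjusted p-values of 0.000664 for *S100a8*, 0.000182 for *S100a9*, 0.172 for *Csf3r* and 0.917 for *Cxcr2*, and voomWithQualityWeights 0.226, 0.210, 0.223 and 0.600. For 8 macrophage and Kupffer cell markers, all tested and 7 with a fold change above 0, the sum was 2303, 2732 and 4056 in WT mice and 2791, 3844 and 8386 in *Nod2*-/- mice. Replicate 7 was again highest, *Clec4f* was the most abundant gene (33.2% of the sum) and *Marco* was at 0 in at least 1 mouse. The mouse with the highest *Tnfaip3*, *Nfkbiz* and *Lcn2* also had the highest neutrophil and macrophage sums.

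Ratios of the *Nod2*-/- mean to the WT mean of the other marker sums were 1.13 for monocytes, 1.42 for T cells, 1.58 for B cells, 1.07 for endothelium, 1.02 for stellate cells, 1.62 for cholangiocytes and 0.143 for lung epithelium, beside 1.42 for macrophages. The monocyte sum (5 of 6 tested, 5 of these above 0 in fold change) was 98.6% *Fn1*, which hepatocytes also make, and ran from 22521 to 33572 (WT) and 23917 to 48261 (*Nod2*-/-), with *Vcan* at 0 in at least 1 mouse. The sum hides its other genes: *Cd14* had 25.2, 55.6 and 117 in WT mice and 60.3, 139.6 and 1021 in *Nod2*-/- mice (log2 fold change 2.22 ± 0.65, edgeR adjusted p 0.0793), *Ly6c2* 3.28, 8.40 and 16.3 in WT mice and 6.35, 14.1 and 66.6 in *Nod2*-/- mice (log2 fold change 1.20 ± 0.53, edgeR adjusted p 0.196) and *Ccr2* 34.0, 41.5 and 59.6 in WT mice and 37.0, 72.4 and 190.1 in *Nod2*-/- mice (log2 fold change 0.95 ± 0.35, edgeR adjusted p 0.136). None of these passed by edgeR, DESeq2 gave *Cd14* an adjusted p of 0.0171, and *Nod2*-/- replicate 7 was the highest mouse in each, as it was in many of the pathway genes. *Cd14* and *Ccr2* are also among the changed genes that the study names from these mice. The T cell sum (1 of 6 tested, 1 of these above 0 in fold change, *Cd4* most abundant, *Cd3e*, *Cd8a* and *Trac* at 0 in at least 1 mouse) ran from 45.0 to 87.3 (WT) and 33.0 to 157 (*Nod2*-/-). The B cell sum (1 of 4 tested, 1 of these above 0 in fold change, *Cd79b* most abundant) ran from 11.7 to 36.2 (WT) and 13.7 to 61.7 (*Nod2*-/-). For endothelium (4 of 4 tested, 3 of these above 0 in fold change, *Clec4g* most abundant) the sum ran from 1897 to 2572 (WT) and 2063 to 2809 (*Nod2*-/-), and for stellate cells (4 of 4 tested, 1 of these above 0 in fold change, *Dcn* most abundant) from 2951 to 5685 (WT) and 3202 to 4163 (*Nod2*-/-). Within the endothelial sum, *Pecam1* had 186, 216 and 332 in WT mice and 286, 319 and 370.5 in *Nod2*-/- mice (log2 fold change 0.46 ± 0.12, edgeR adjusted p 0.0662) and *Cdh5* 194, 201 and 310.0 in WT mice and 242, 264 and 303 in *Nod2*-/- mice (log2 fold change 0.28 ± 0.11, edgeR adjusted p 0.158), with all 7 *Nod2*-/- mice above the WT median in both, while in log2 fold change *Clec4g* had 0.06 ± 0.11 (edgeR adjusted p 0.767) and *Stab2* -0.06 ± 0.16 (edgeR adjusted p 0.842). For *Pecam1* DESeq2 gave an adjusted p of 0.0155 and voomWithQualityWeights 0.0156 (exact permutation p = 0.00641), and for *Cdh5* they gave 0.152 and 0.0448. The cholangiocyte sum (4 of 4 tested, 2 of these above 0 in fold change, *Sox9* most abundant) ran from 68.7 to 218 (WT) and 138 to 236 (*Nod2*-/-), and *Sox9* made up 58.3% of it. *Sox9* passed 5% FDR, as did 1.16% of all tested genes, with a log2 fold change of 1.29 ± 0.25 (edgeR adjusted p 0.0324), while *Krt19* had -0.40 ± 0.41 (edgeR adjusted p 0.587), *Krt7* -0.05 ± 0.31 (edgeR adjusted p 0.943) and *Epcam* 0.24 ± 0.30 (edgeR adjusted p 0.661). Markers of lung epithelium (4 of 5 tested, 0 of these above 0 in fold change), with *Sftpc* the most abundant, ran from 213 to 3022 (WT) and 38.1 to 477 (*Nod2*-/-). Here 5 of the 7 *Nod2*-/- mice were below every WT mouse, and WT replicate 4 was highest. Without this mouse the ratio of means was 0.227, and without *Nod2*-/- replicate 5 it was 0.0925. The edgeR adjusted p was 0.0712 for *Sftpc*, 0.0656 for *Sftpa1*, 0.0710 for *Sftpb* and 0.0889 for *Slc34a2*. For the same genes DESeq2 gave 0.0154, 0.00977, 0.0148 and 0.0136, where 8.41% of its genes passed 5% FDR, and voomWithQualityWeights gave 0.0945, 0.0973, 0.110 and 0.208. Hepatocyte markers (5 of 5 tested, 3 of these above 0 in fold change) were at 0 in no mouse, and *Alb* made up 75.5% of their sum. In log2 fold change *Alb* had 0.21 ± 0.23, *Serpina1a* 0.17 ± 0.18 and *Apoa1* 0.53 ± 0.23 (edgeR adjusted p 0.198). *Cps1* had -0.38 ± 0.15 (edgeR adjusted p 0.150, 0.0471 by DESeq2) and *Ttr* -0.27 ± 0.14 (edgeR adjusted p 0.264). In each of *Cps1* and *Ttr*, 5 of the 7 *Nod2*-/- mice were below every WT mouse.

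Sequence was compared by the κB motif, the site that NF-κB dimers bind, in RefSeq promoters of GRCm38, each from 250 bases before to 50 after a start of the gene. Its forms GGNNTTTCC and GGGNNTTCC, which can overlap, were searched on both strands. Of all 32851 promoters, 9.83% held at least 1 form (5.82% each form), and of 27025 genes, 11.1% had it in at least 1 of their promoters. A promoter was matched for 9 of the 10 members, all but *Ripk2*, and 5 had a match (*Nod2*, *Birc2*, *Map3k7*, *Nfkbia* and *Tnfaip3*). Over the members and wider lists, 28 of 84 genes had one, with 3 of 4 in the IκB family, 9 of 20 among NF-κB targets and 0 of 8 among the MAP kinases. A match is a string of letters, not a site shown to be bound. Both feedback genes, *Nfkbia* and *Tnfaip3*, had matches.

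The 250 bases before the start are shown for these feedback genes and for *Nfkbie* and *Icam1*, an inhibitor gene that missed 5% FDR and the adhesion gene that passed it by edgeR, 5′ to 3′ on the strand of the gene, with motif matches in capitals. *Tnfaip3* has a further RefSeq start without a match.
*Nfkbia* (chr12:55492648-55492897, minus strand): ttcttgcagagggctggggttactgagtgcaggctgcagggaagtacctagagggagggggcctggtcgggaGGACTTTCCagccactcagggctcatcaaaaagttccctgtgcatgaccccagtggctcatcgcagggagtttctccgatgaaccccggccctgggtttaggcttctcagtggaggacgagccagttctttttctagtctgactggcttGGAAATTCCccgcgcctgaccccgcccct
*Tnfaip3* (chr10:19015411-19015660, minus strand): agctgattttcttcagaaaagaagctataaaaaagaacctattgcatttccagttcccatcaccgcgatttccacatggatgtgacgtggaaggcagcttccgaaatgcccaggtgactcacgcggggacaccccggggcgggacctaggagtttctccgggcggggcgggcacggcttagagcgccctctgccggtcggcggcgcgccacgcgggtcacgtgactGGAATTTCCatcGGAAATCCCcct
*Nfkbie* (chr17:45555450-45555699, plus strand): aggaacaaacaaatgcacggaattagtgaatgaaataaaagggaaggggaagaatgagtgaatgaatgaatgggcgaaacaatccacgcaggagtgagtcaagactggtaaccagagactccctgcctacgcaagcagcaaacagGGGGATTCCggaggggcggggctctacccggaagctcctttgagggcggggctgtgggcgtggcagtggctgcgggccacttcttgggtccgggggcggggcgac
*Icam1* (chr9:21015690-21015939, plus strand): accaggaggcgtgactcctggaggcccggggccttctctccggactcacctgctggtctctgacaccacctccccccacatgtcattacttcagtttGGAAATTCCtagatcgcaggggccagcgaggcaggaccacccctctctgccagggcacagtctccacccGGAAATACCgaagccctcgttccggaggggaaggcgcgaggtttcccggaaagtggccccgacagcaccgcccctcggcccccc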

How the data were processed

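Liver RNA of 6 WT and 7 *Nod2*-/- mice was analysed, 1 library per mouse. Per the labels, the authors made paired-end libraries of polyA RNA with a stranded kit, trimmed reads with Trimmomatic 0.33, aligned them to GRCm38 with TopHat2 2.1.1, and deposited a table of raw gene counts used for DESeq2. The counting program and its use of strand are not given in the sources used here. Members and lists were chosen with earlier results of these data known.

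From the deposited counts of 53465 genes, those kept by filterByExpr (13545) were tested with edgeR 4.0.16 (TMM scaling, quasi-likelihood F test) in R 4.3.3, with Benjamini-Hochberg adjustment and a threshold of 5% FDR. Normalized counts used the mean effective library size. Exact permutation tests ran over all 1716 assignments of mice to groups, with a smallest p of 0.000583. Depth ran from 13824780 to 20579984 counts per mouse. DESeq2 1.42.0, limma 3.58.1, other scaling and filters, a replicate block and omission of each mouse were alternatives. Members and named genes were matched by Ensembl identifier and symbol. On 5 sets of simulated counts with known altered genes, false calls made up 1.54% to 7.04% of edgeR calls, 3.55% to 8.04% of voomWithQualityWeights calls and 7.25% to 14.0% of DESeq2 calls, so DESeq2 exceeded 5% in every set. The simulated counts had the same dispersion for every gene and no outlying mouse. The real counts differ in this, so these shares need not hold for them. The pass rule of this test first covered every tool and was limited to edgeR after false calls by DESeq2 were seen. Motifs were counted in RefSeq promoters. Single-mouse values far from their group were kept. Untreated mice and other tissues were not used here.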

Additional observations from a re-analysis of the deposited data

Results flagged for a closer look

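Each group of mice was searched gene by gene for a single value far from the others, by the gap to the next value as a share of the group's range (Dixon's ratio, at the 5% limit). In 88 groups of 44 genes, 8 had such a value. The limit gives about 1 in 20 groups only where values are independent and normally distributed. These groups share mice, and many of the genes were picked by their p-values, so no excess can be read from this count. All 8 values were kept, and why they stand apart was not tested.

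*Nod2*-/- replicate 7 was the high mouse in 4 groups: *Tnfaip3* (ratio 0.731, 449 against a next value of 176), *Nfkbiz* (0.628, 567 against 303), *Nlrp3* (0.582, 28.4 against 15.0) and *Lcn2* (0.72, 53827 against 15766). This mouse also had the highest sums of neutrophil and macrophage markers.

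WT replicate 3 was high in *Nfkbie* (0.702, 77.7 against 56.5) and *Ciita* (0.701, 30.7 against 12.1). WT replicate 6 was high in *Lacc1* (0.828, 96.6 against 42.0). WT replicate 2 was low in *Tnfaip2* (0.63, 98.7 against 198).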

How the results depend on the processing

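Over all genes, 88 were higher and 69 lower by edgeR. DESeq2 gave 630 and 579, limma's voomWithQualityWeights 519 and 324, and omission of WT replicate 3 with *Nod2*-/- replicate 7 gave 408 and 159. With 1 mouse left out the higher genes ranged from 20 (without WT replicate 4) to 697 (without WT replicate 3) and the lower ones from 20 (without WT replicate 1) to 459 (without WT replicate 3). RLE scaling, no filter, and at least 10 counts in every mouse gave 155, 149 and 135 genes in all, against 157.

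Of the 104 pathway genes, 2 were higher and 0 lower. DESeq2 gave 13 and 4, voomWithQualityWeights 9 and 0, the joint omission 5 and 0, and single omissions 0 (as without WT replicate 1) to 10 (without WT replicate 3) and 0 to 1. Of the members, DESeq2 alone placed 1 past 5% FDR, *Tnfaip3*, against 0 in every other setting. The cause of these shifts was not tested.

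Of the 43 named pathway genes followed through the alternatives, *Nfkbia* alone reversed: its log2 fold change of 0.02 was -0.0217 by voomWithQualityWeights, -0.0514 with the replicate block and -0.14 with the joint omission. With 1 mouse left out it ran from -0.0686 (without *Nod2*-/- replicate 7) to 0.10 (without WT replicate 6), with -0.06 without WT replicate 3, -0.05 without WT replicate 5 and -0.02 without *Nod2*-/- replicate 5. Other tested pathway genes were compared by DESeq2 and voomWithQualityWeights only, and signs turned close to 0 there too. By DESeq2 this held for *Nlrx1* (0.008 to -0.006) and *Peli3* (0.016 to -0.010). By voomWithQualityWeights it held for *Nlrx1* (-0.022), *Atg16l1* (0.021 to -0.013), *Traf3* (-0.022 to 0.076) and *Gadd45b* (-0.025 to 0.058). The cause was not tested.

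With the replicate block 17 genes were higher and 18 lower, and 0 pathway genes were higher. The numbers do not pair the mice: deviations of the 6 same-numbered pairs correlated at -0.302 to 0.304, 1 of 6 over 0.1, and 0 WT mice matched best with their own number.

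Several limits bear on the values. The groups came from separately bred lines, and no cage, litter or run was given, so none could be modelled. The label of cancer is the same for every mouse and tumour burden was not modelled, so effects of genotype and of tumours cannot be told apart. Whole liver holds many cell types, and transcript levels say nothing of ubiquitin chains or phosphorylation, through which most of the pathway works. *Nod2* was too low to compare, and at this depth 82 of the 104 pathway genes could be tested. Untreated mice and other diets were not used here, so differences special to DMBA and diet cannot be told apart from standing ones.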
